A study of Rattus norvegicus with 6 samples.

Results

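The genes described here are the NF-kB subunits and the feedback inhibitors that NF-kB induces, in blood vessel endothelial cells of rat skin with and without Il33. The list held 10 genes, chosen by symbol, with earlier results of these data known. The subunits listed were Nfkb1, Nfkb2, Rel and Relb. Rela, also a subunit, was not on the list and is given below among the other genes of the pathway. Grouped here as inhibitors were Nfkbia, Nfkbie, Nfkbiz, Bcl3, Tnfaip3 and Birc3, though Bcl3 and Birc3 also have other roles, given below. Of the 10 genes, 6 had a named probeset among the 15037 genes of the platform annotation used here, with 1 probeset each. They were Nfkb1, Nfkb2, Nfkbia, Nfkbie, Bcl3 and Birc3, and all 6 passed the filter that left 11515 genes in the tests. Rel, Relb, Nfkbiz and Tnfaip3 were not matched to a probeset and have no values here.

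The cells came from abdominal skin of Sprague-Dawley rats, 3 with a knockout of Il33 (animals 27, 28 and 52) and 3 wildtype (animals 34, 45 and 37). Each group held 2 females and 1 male, the males being knockout 52 and wildtype 37. After digestion with collagenase and DNase, magnetic sorting removed CD45-positive cells and then Lyve-1-positive cells and kept CD31-positive cells, and the RNA of each animal was hybridised to its own Affymetrix array. The sources used here do not describe the knockout allele or the age of the animals. Values are log2 expression from RMA, so a difference of 1 is a doubling of signal.

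NF-kB is a family of dimeric transcription factors that rests in the cytoplasm, bound by IkB proteins, until a kinase complex marks the IkB protein for degradation. Released dimers bind kappa B sites in DNA and switch on inflammatory genes, among them the genes of their own inhibitors, which ends the response. Interleukin-33 engages a receptor of the IL-1 family whose adaptor, Myd88, leads to this pathway, and endothelial cells use it to display adhesion molecules and chemokines.

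The promoters are shown first, because the feedback described above is read from kappa B sites in them. RefSeq (GRCr8) windows of 300 bases, from 250 bases before to 50 after the gene start, were found for 8 of the 10 genes, and for 5 of the 6 with values. The kappa B consensus was searched by name on both strands, as a motif of 10 bases that may overlap itself. All 8 windows, the first of each gene, held it, whereas 1400 of all 33469 windows (4.18%) did. The inhibitors were listed as genes that NF-kB induces, so this share is not a test. Tnfaip3 held 3 matches, where 21 of all windows (0.0627%) held 3 or more, and Rel held 2 that overlap. A match describes the letters only and does not show binding. In the stretches below, written 5′ to 3′ along the gene, capitals mark the matches; the Tnfaip3 match at bases 81 to 90 of its window lies outside the stretch shown. The whole upstream stretch is given for Nfkbia, the classical feedback inhibitor, and only the surroundings of the match for the others.

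Nfkb1, chr2:226805440-226805469, minus strand: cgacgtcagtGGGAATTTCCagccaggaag

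Nfkb2, chr1:255108329-255108372, plus strand: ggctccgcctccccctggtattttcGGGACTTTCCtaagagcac

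Rel, chr14:101921985-101922045, minus strand: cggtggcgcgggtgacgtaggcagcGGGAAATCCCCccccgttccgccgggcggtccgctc

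Nfkbia, chr6:78597074-78597322, minus strand: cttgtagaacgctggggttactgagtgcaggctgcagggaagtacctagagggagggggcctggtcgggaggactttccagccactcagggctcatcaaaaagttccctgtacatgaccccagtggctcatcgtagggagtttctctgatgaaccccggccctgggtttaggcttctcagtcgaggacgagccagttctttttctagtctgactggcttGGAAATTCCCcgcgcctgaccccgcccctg

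Nfkbie, chr9:22948002-22948061, minus strand: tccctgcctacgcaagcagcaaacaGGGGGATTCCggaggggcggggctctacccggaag

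Nfkbiz, chr11:58251683-58251719, plus strand: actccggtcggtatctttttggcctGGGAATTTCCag

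Bcl3, chr1:88613559-88613618, minus strand: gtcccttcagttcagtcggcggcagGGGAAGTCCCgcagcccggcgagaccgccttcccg

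Tnfaip3, chr1:15544000-15544071, minus strand: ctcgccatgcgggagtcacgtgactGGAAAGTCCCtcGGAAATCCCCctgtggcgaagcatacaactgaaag

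Read along the gene, the match lay at bases 254 to 263 of the window in Nfkb1, just past the gene start, and at bases 231 to 240 in Nfkb2, just before it. It lay at bases 220 to 229 in Nfkbia, 213 to 222 in Bcl3 and 87 to 96 in Nfkbie. The matches in Nfkbia and Bcl3 ran on the opposite strand and those in Nfkb1, Nfkb2 and Nfkbie on the strand of the gene. Of other pathway genes with a window (kinases, adaptors, ubiquitin enzymes and the remaining Rel and IkB proteins), 3 of 32 held a match. Of NF-kB target genes 12 of 26 did, among them Cxcl1, Cxcl2 and Il6. In both of these counts each gene was taken by its window with the most matches, unlike the listed genes.

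The labels were checked on Il33 itself, which was 8.37, 8.07 and 9.82 in knockouts 27, 28 and 52 and 13.86, 16.32 and 16.60 in wildtypes 34, 45 and 37. It fell by 6.84 on the log2 scale (limma adjusted p = 0.0439, SE 0.73), and the call was lost without knockout 27 (adjusted p = 0.661), 28 (0.270) or 52 (0.0687) and without wildtype 45 (0.653) or 37 (0.0773). It was also lost with no filter on dim genes (0.0854), with a filter at the 50th percentile (0.0544) and in the females alone (0.131). The endothelial markers Cdh5 (19.62 to 19.71) and Pecam1 (14.99 to 15.82) gave high signal on every array. The highest value an array gave was 19.70 to 19.93. Other cells varied between animals: Krt14 was 15.11 in wildtype 34 and 7.63 to 11.86 elsewhere, Ptprc (CD45) 7.72 in wildtype 34 and 3.99 to 5.80 elsewhere, Col1a1 13.47 and 8.03 to 10.18, while Prox1 ranged from 4.41 to 8.03 and Lyve1 from 5.04 to 8.22. The pericyte marker Pdgfrb was 13.62, 13.05 and 13.15 in knockouts 27, 28 and 52. In wildtypes 34, 45 and 37 it was 11.9, 11.44 and 13.1, so the groups overlapped, with a difference of 1.13. Rgs5, also of pericytes, was 16.49 in wildtype 45 and up to 18.68 in knockout 52. None of these defining markers was at 0, a level that RMA values do not reach. Of the 11 pericyte and smooth muscle markers, 9 were higher in the knockout and 2 lower, and none was called. A mean was taken over 8 spike-in controls, of bacterial and phage sequence rather than rat, without separating the steps at which they are added. This mean was 10.26, 10.42 and 10.12 in knockout 28 and wildtype 34 and 45. In knockout 27 and 52 and wildtype 37 it was 9.33, 8.82 and 8.91.

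**Figure D1:**
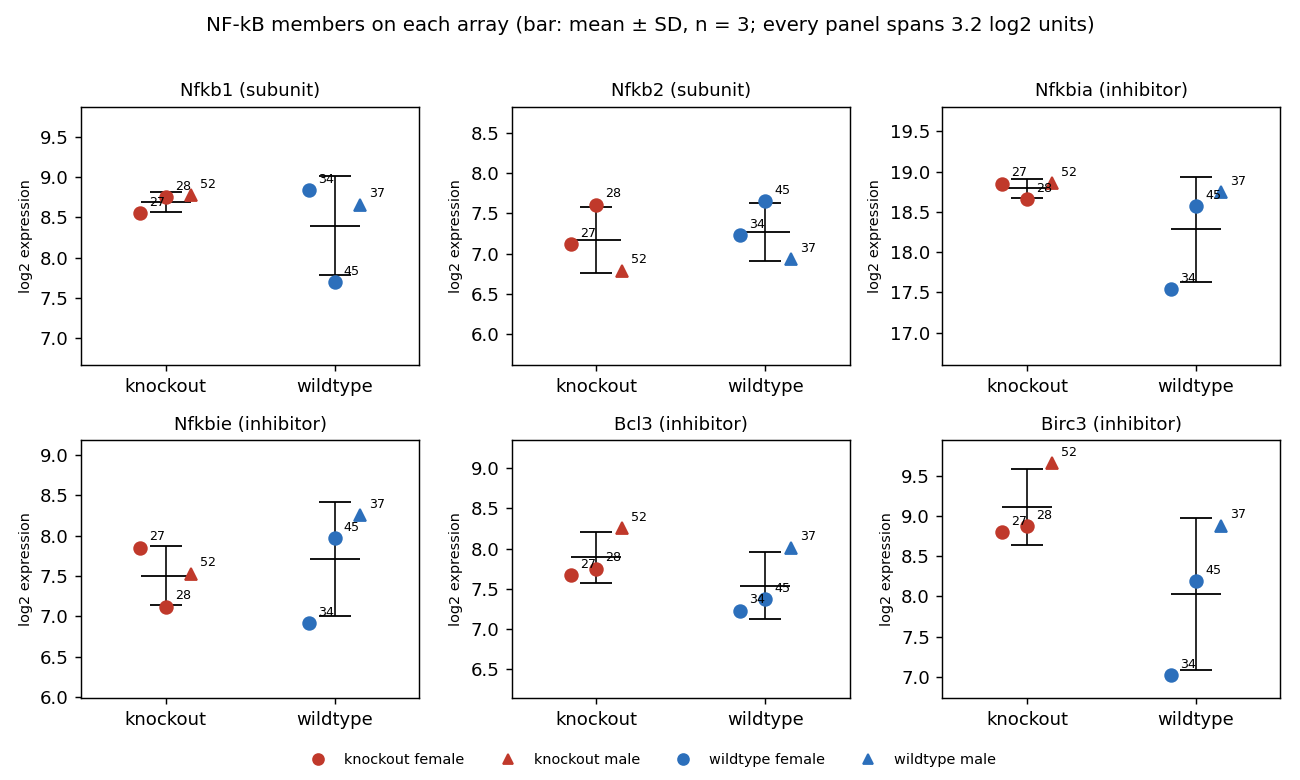
Log2 expression (vertical axis) of the 6 measured genes on each array, by genotype; circles are females, triangles males, numbers are animals, and bars are mean ± SD of 3 arrays. Every pair of groups overlaps, and wildtype 34 is the lowest array for Nfkbia, Nfkbie, Bcl3 and Birc3.

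Neither measured subunit passed the test between knockout and wildtype, and their differences were 0.29 for Nfkb1 and -0.10 for Nfkb2. Nfkb1 encodes p105, the precursor of the DNA-binding subunit p50 of the canonical pathway. Its log2 expression was 8.55, 8.75 and 8.78 in knockouts 27, 28 and 52 and 8.84, 7.70 and 8.66 in wildtypes 34, 45 and 37. Wildtype 45 stood low, and the other 5 arrays lay within 8.55 to 8.84. The means were 8.69 ± 0.13 in the knockout and 8.40 ± 0.61 in the wildtype (SD, n = 3 each), a difference of 0.29 with a 95% interval of -0.55 to 1.14 (limma adjusted p = 0.999). Without wildtype 45 the difference was -0.06, so its sign rested on that array.

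Nfkb2 encodes p100, which both restrains RelB and gives rise to p52, the subunit of the non-canonical pathway. It was 7.12, 7.61 and 6.79 in knockouts 27, 28 and 52 and 7.23, 7.65 and 6.93 in wildtypes 34, 45 and 37. The groups ran side by side, with the male array lowest in each. The means were 7.17 ± 0.41 and 7.27 ± 0.36, a difference of -0.10 with an interval of -0.90 to 0.71 (limma adjusted p = 0.999). The sign turned without knockout 52 (0.10) or wildtype 45 (0.09), and the size of the difference was at the 20.6th percentile of all genes tested.

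Of the inhibitors, Birc3 had the largest difference between genotypes, Nfkbia and Bcl3 smaller ones above 0 and Nfkbie one below 0. None passed the test, against 0.00868% of all genes tested, which is Il33 alone. At an unadjusted p under 0.05 there were 0 of the 6 measured genes, where 1.97% of all genes had one. With sex as a covariate Birc3 had one, as did 473 of the 11515 genes. The groups overlapped for all 6, where 6.25% of genes did not. In RNA of sorted cells, fewer cells of a type and less RNA per cell cannot be told apart.

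Nfkbia encodes IkB-alpha, which pulls NF-kB dimers out of the nucleus and is resynthesised within the response. Its log2 expression was 18.85, 18.66 and 18.86 in knockouts 27, 28 and 52 and 17.54, 18.57 and 18.74 in wildtypes 34, 45 and 37. All arrays but wildtype 34 lay close together. The means were 18.79 ± 0.11 and 18.28 ± 0.65, a difference of 0.51 (95% interval -0.36 to 1.37, limma adjusted p = 0.999). Without wildtype 34 it was 0.14 and without wildtype 37 it was 0.74. On every array the signal was high, between the 99.5th and 99.7th percentile of genes. It lay below the highest value of the array, which was 19.76 in wildtype 34.

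Nfkbie encodes IkB-epsilon, a slower cytoplasmic inhibitor of the same kind. It was 7.85, 7.12 and 7.53 in knockouts 27, 28 and 52 and 6.91, 7.97 and 8.25 in wildtypes 34, 45 and 37. The wildtype animals held both the lowest and the 2 highest values. The means were 7.50 ± 0.37 and 7.71 ± 0.71, a difference of -0.21 (95% interval -1.15 to 0.73, limma adjusted p = 0.999). It was -0.61 without wildtype 34, 0.06 without wildtype 37, 0.045 in the females and -0.72 between the males.

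Bcl3 encodes an IkB-like protein of the nucleus that works with p50 and p52 dimers. It was 7.67, 7.75 and 8.25 in knockouts 27, 28 and 52 and 7.23, 7.37 and 8.01 in wildtypes 34, 45 and 37. Within each sex the knockout arrays were higher, and the groups overlapped through wildtype 37. The means were 7.89 ± 0.31 and 7.54 ± 0.42, a difference of 0.35 (95% interval -0.44 to 1.15, limma adjusted p = 0.999). It was 0.17 without knockout 52, 0.20 without wildtype 34 and 0.59 without wildtype 37. Among the arrays of low spike-in signal (knockouts 27 and 52 against wildtype 37 alone) it was -0.05.

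Birc3 encodes cIAP2, a ubiquitin ligase of the TNF receptor complex that limits cell death and restrains the non-canonical kinase. It was 8.80, 8.87 and 9.65 in knockouts 27, 28 and 52 and 7.02, 8.19 and 8.88 in wildtypes 34, 45 and 37. The groups overlapped by the male wildtype alone, whose 8.88 lay just above knockouts 27 and 28. The means were 9.11 ± 0.47 and 8.03 ± 0.94, a difference of 1.08 with an interval of -0.03 to 2.18. The unadjusted limma p was 0.0547, rank 260 of 11515, and the adjusted p was 0.999. The difference was 1.23 in the females and 0.77 between the males. With sex as a covariate the difference had an unadjusted limma p of 0.0159 and an adjusted p of 0.961. The unadjusted p was also under 0.05 in the females alone, with array weights, with quantile normalization again and without wildtype 37. In that order, 620, 537, 302 and 967 of all genes tested had one under 0.05. In the other alternatives with a test the unadjusted limma p of Birc3 was 0.0521 to 0.222. Among these it was 0.163 with the keratinocyte median as a covariate and 0.222 without wildtype 34. The difference was 0.57 without wildtype 34 and 1.50 without wildtype 37, where the adjusted p was 0.501. It was 1.27 among the arrays of high spike-in signal (knockout 28 alone against wildtypes 34 and 45). Among those of low signal (knockouts 27 and 52 against wildtype 37 alone) it was 0.35.

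**Figure D2:**
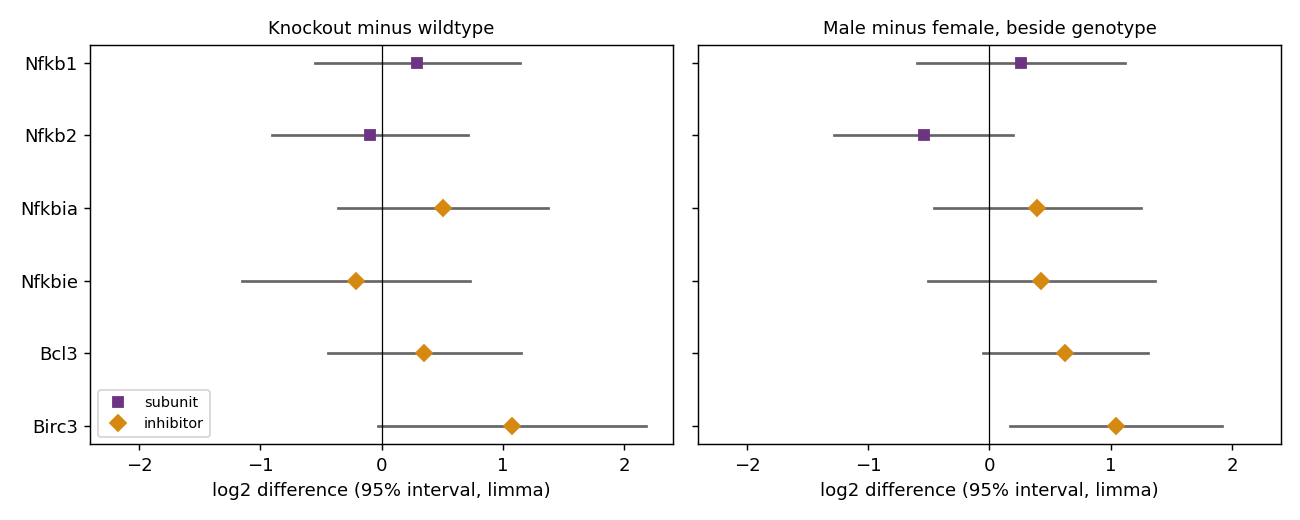
Log2 differences (horizontal axis) of the 6 genes between genotypes (left) and between sexes in a model with genotype (right); lines are 95% intervals from limma, squares are subunits and diamonds inhibitors. All 6 genotype intervals span 0, and Birc3 is the only gene whose sex interval (0.17 to 1.92) does not.

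Set against each other as differences, the 2 measured subunits had a median of 0.10 between knockout and wildtype. The 4 measured inhibitors had a median of 0.43, against 0.04 over all genes tested. Rela, not on the list, is left out of the subunit median and differed by 0.74. One subunit of 2 and 3 inhibitors of 4 were higher in the knockout, as were 54.1% of all genes tested. The counts were again 1 of 2 and 3 of 4 without wildtype 34, when the medians were 0.20 for the subunits and 0.17 for the inhibitors, in the reverse order. With the keratinocyte median as a covariate they were 0.21 and 0.17. In the arrays of low spike-in signal (knockouts 27 and 52 against wildtype 37 alone) they were 0.015 and 0.03. In those of high signal (knockout 28 alone against wildtypes 34 and 45) they were 0.33 and 0.53.

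The inhibitors shared a low value on 1 wildtype array. All 4 measured inhibitors had their lowest value of the 6 arrays in wildtype 34, where 20.7% of all genes tested did, and neither subunit did. Relative to each gene's mean over the 6 arrays, wildtype 34 deviated by -1.0 for Nfkbia, -0.69 for Nfkbie, -0.48 for Bcl3 and -1.55 for Birc3, but by 0.29 for Nfkb1 and 0.01 for Nfkb2. Averaged over the inhibitors the deviations of wildtypes 34, 45 and 37 were -0.93, -0.08 and 0.36, against 0.19, -0.01 and 0.47 in knockouts 27, 28 and 52. For the subunits the same averages ran from -0.21 in wildtype 45 to 0.30 in knockout 28.

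Wildtype 34 had the highest signal of keratinocyte, leukocyte and fibroblast markers. The median of the 8 measured keratinocyte markers was 14.53 there and 8.41 to 11.83 elsewhere. That of 16 leukocyte markers was 5.09 and 3.30 to 4.24, and that of 9 fibroblast markers 11.34 and 8.03 to 10.18. On all arrays but wildtype 34 the leukocyte median lay below the background probesets (medians 4.55 to 4.73 per array). Of the 16 leukocyte markers, 11 passed the filter. Their summed signal, on the log2 scale, was 18.85 for keratinocytes in wildtype 34, 14.19 to 15.90 in the other wildtypes and 13.63 to 16.10 in the knockouts. For leukocytes it was 12.23 in wildtype 34 and 10.62 to 11.51 elsewhere, and for fibroblasts 16.79 and 13.00 to 14.86. Pericyte and smooth muscle markers had their lowest median there (8.36, against 8.46 to 10.19). Their summed signal was instead lowest in wildtype 45 (16.63), with 18.25 in wildtype 34 and 18.61 to 18.81 on the other arrays. The lymphatic median of 7.62 in wildtype 34 lay within the range of 5.24 to 8.56 elsewhere. The median of the blood endothelial markers was 14.80 in wildtype 34, within the range of 14.30 to 15.08 of the other arrays. With the keratinocyte median as a covariate the genotype difference was 0.59 for Birc3, 0.20 for Nfkbia, 0.13 for Bcl3 and -0.60 for Nfkbie. The keratinocyte median was 11.61, 14.53 and 11.83 in knockout 28 and wildtypes 34 and 45, the arrays of high spike-in signal. In knockouts 27 and 52 and wildtype 37, those of low signal, it was 8.80, 8.72 and 8.41. The covariate and the spike-in split are therefore not separate checks, and wildtype 34 was highest in both. The part of keratinocytes, leukocytes or fibroblasts in the values was not tested.

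**Figure D3:**
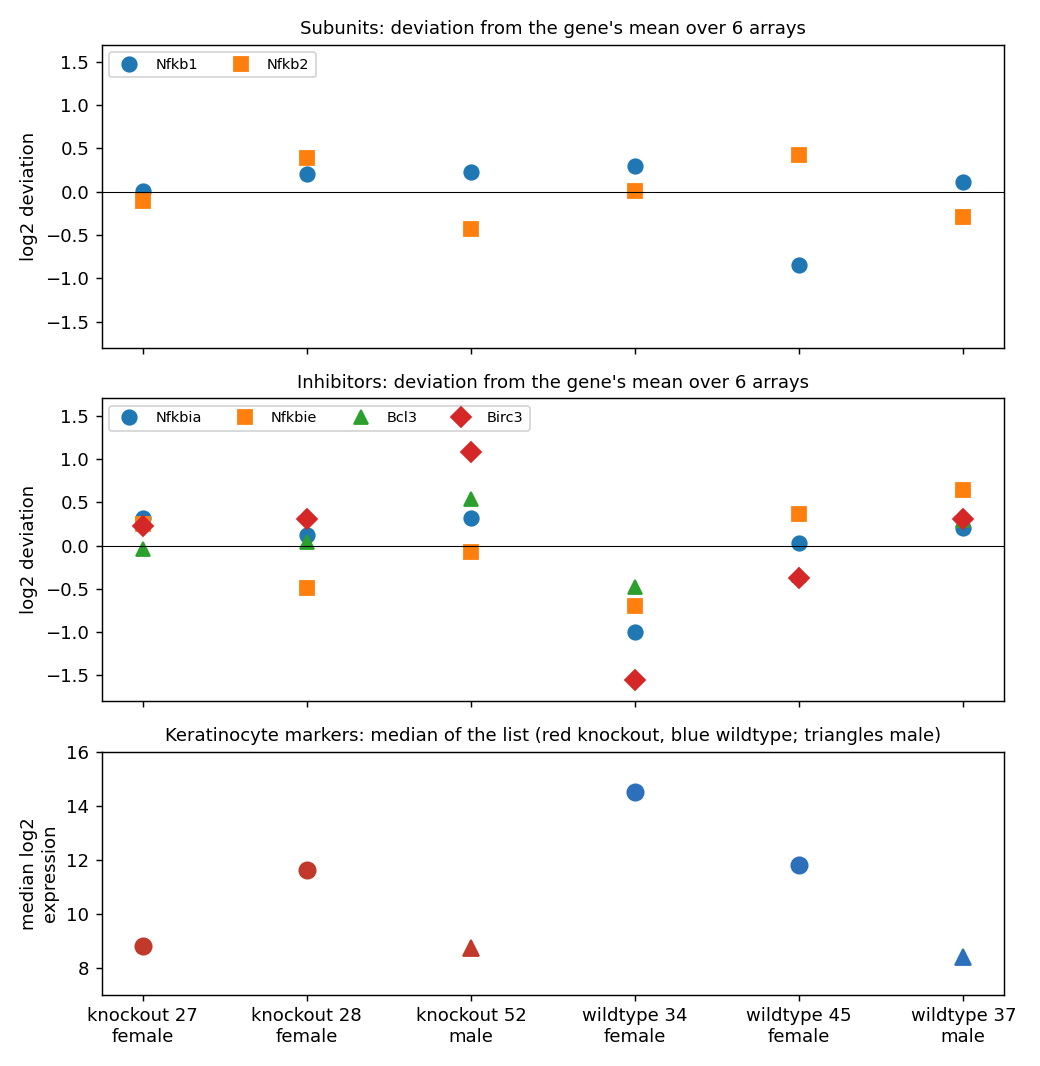
Deviation of each gene from its own mean over the 6 arrays (vertical axis, log2) for subunits (top) and inhibitors (middle), above the median log2 expression of the keratinocyte markers (bottom), by array. The 4 inhibitors are all below their means in wildtype 34, by 0.48 to 1.55, where the keratinocyte median is 14.53.

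**Figure D4:**
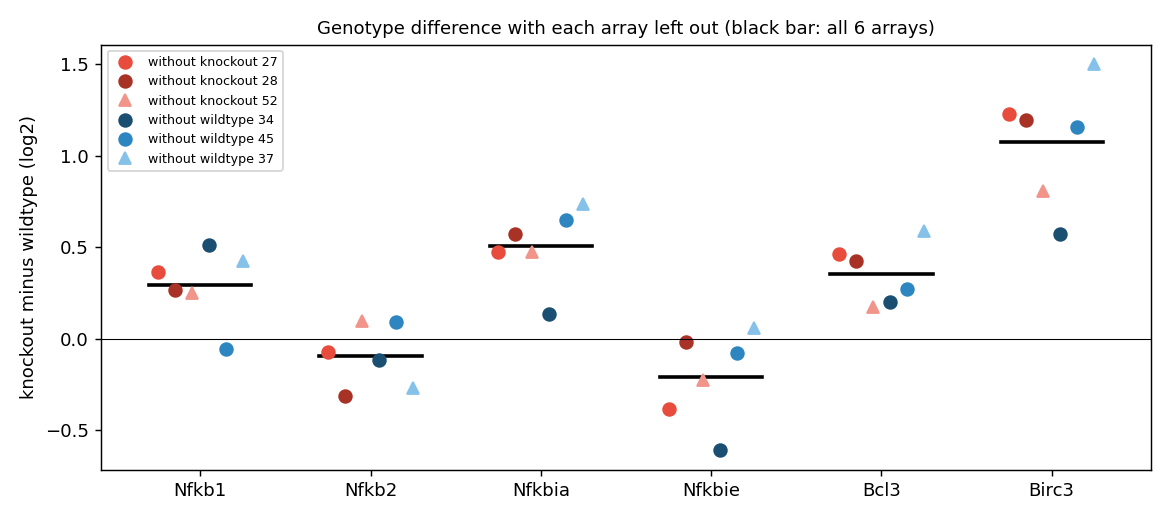
Knockout minus wildtype difference (vertical axis, log2) of each gene over all 6 arrays (black bar) and with each array left out in turn (symbols). Birc3 ranges from 0.57 to 1.50 and stays above 0, while Nfkb1, Nfkb2 and Nfkbie lie on both sides of 0.

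Sex was compared in a model with genotype, over 2 males and 4 females. None of the 6 genes passed, against 0.0261% of all genes tested, and Birc3 was the only one at an unadjusted p under 0.05, where 18.7% of genes had one. Birc3 was 9.65 and 8.88 in the males and 7.02 to 8.87 in the females, 1.04 ± 0.39 higher (difference ± SE, limma adjusted p = 0.209). Bcl3 was 8.25 and 8.01 in the males and 7.23 to 7.75 in the females, a difference of 0.62 (limma adjusted p = 0.302). Nfkb2 was 6.79 and 6.93 against 7.12 to 7.65, a difference of -0.54 (limma adjusted p = 0.401). The sexes did not overlap for 3 of the 6 genes, 2 of them higher and 1 lower in the males. Of all genes tested 31.7% did not overlap, 23.5% higher and 8.26% lower.

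The median male minus female difference of all genes was 0.18, and 0.06 after quantile normalization was run again. Birc3 then differed by 0.69, Bcl3 by 0.28 and Nfkb2 by -0.86. Both males were among the arrays of low spike-in signal, and their keratinocyte medians of 8.72 and 8.41 were the lowest of the 6. With the spike-in split as a block Birc3 differed by 0.99 and Nfkb2 by -0.24, and with the keratinocyte median as a covariate Birc3 differed by 0.49. Nfkbia, Nfkbie and Nfkb1 differed between the sexes by 0.40, 0.43 and 0.26, with overlapping values. The interaction of genotype and sex was not called for any of the 6 genes (limma adjusted p = 0.999 each) or for any gene tested (0%), with 1 male per genotype; 1.03% of all genes had an unadjusted p under 0.05.

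Of the other genes of the pathway, 30 of 40 were tested, 19 were higher and 11 lower in the knockout, and none passed; the median difference was 0.09, or 0.04 with 18 higher when wildtype 34 was left out. Rela encodes p65, the partner of p50 in the canonical dimer. It was 13.90, 14.58 and 13.76 in knockouts 27, 28 and 52 and 13.15, 13.34 and 13.52 in wildtypes 34, 45 and 37, so all knockout arrays lay above all wildtype arrays. That held for 3.36% of genes tested. The difference was 0.74 with an SE of 0.35, and the limma adjusted p over all genes was 0.999.

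Nfkbib, which encodes IkB-beta, was likewise apart, at 5.28 to 5.58 in the knockout and 4.93 to 5.19 in the wildtype, near the background probesets (medians 4.55 to 4.73 per array). Commd1, a factor that promotes loss of RelA from DNA, was apart the other way, at 7.06 to 7.32 against 7.45 to 7.94, as 2.89% of genes were. Its difference was -0.46 (limma adjusted p = 0.999).

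None of the kinases of the pathway passed the test, with SEs of 0.30 to 0.50. Their 9 tested members had differences from -0.17 to 0.30, and those of smallest p were Map3k14, the NF-kB inducing kinase (0.30), Map3k7, also called TAK1 (-0.16), and its partner Tab1 (0.20). Map3k14 (4.37 to 5.10) and Tab1 (3.84 to 5.32) were also near the background probesets. Among 8 adaptors the range was -0.10 to 0.54, led by Bcl10 (0.42), Traf6 (0.54) and Birc2 (0.29), the near relative of Birc3. Birc2 was 8.95, 8.50 and 8.87 in knockouts 27, 28 and 52 and 8.39, 7.93 and 9.12 in wildtypes 34, 45 and 37. Of 11 ubiquitin enzymes and other brakes, 5 were higher and 6 lower. Zc3h12a, a ribonuclease that destroys inflammatory mRNA and is itself an NF-kB target, was 10.63 to 13.33 in the wildtype and 11.99 to 13.16 in the knockout, and Rbck1 of the linear ubiquitin ligase differed by -0.50.

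Target genes of NF-kB had a median difference of 0.59 over 30 tested, 26 of them higher in the knockout, and none passed. Without wildtype 34 (left out after its values were seen) the median was 0.20 and 19 of the 30 were higher. The 3 of smallest p were Ccl5 (0.71), Gadd45b (0.82) and Cxcl1 (1.51). Ccl5 was 4.60 to 5.47 in the knockout and 4.15 to 4.40 in the wildtype, near the background probesets (medians 4.55 to 4.73 per array). Cxcl1 was 16.92, 13.89 and 14.22 in knockouts 27, 28 and 52 and 11.89, 14.33 and 14.27 in wildtypes 34, 45 and 37, lowest in wildtype 34 like the inhibitors. The summed signal of the target list, which its brightest genes dominate, was 18.42 on the log2 scale in wildtype 34. On the other arrays it was 20.12 to 20.83. The list's median was instead lowest in wildtype 45 (5.76), with 6.33 in wildtype 34 and 6.51 to 7.71 on the other arrays. Over genes tested whose promoter held a kappa B match, 472 in all, the median difference was 0.03 and 53.4% were higher in the knockout, against 0.04 and 54.3% over the 9105 without a match. Each gene was taken by its window with the most matches.

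Immediate early genes, which cell dissociation induces, had a median difference of 0.42, with 20 of 22 higher in the knockout and none called, and 0.36, again with 20 higher, without wildtype 34. Those of smallest p were Nr4a3 (0.97), Fosb (0.78) and Nr4a1 (0.78). The list's median was 12.64 in wildtype 45, 13.43 in wildtype 34 and 13.68 to 14.13 on the other arrays. Its part in the values of the NF-kB genes was not tested.

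The genes whose profile over the 6 arrays came nearest to the mean profile of the 6 NF-kB genes were Ptdss2, Nipa2, Trim27, Sdhaf1 and Abhd13. Their root mean square distances were 0.209 to 0.215 on the log2 scale, against a median of 0.614 over the 5015 genes compared. Each was lowest in wildtype 34, as Ptdss2 at 6.40 against 6.99 to 7.70 and Nipa2 at 7.87 against 8.65 to 9.23. The way they were chosen favours this, because the mean deviation of the NF-kB genes was -0.57 in wildtype 34 and -0.12 to 0.28 elsewhere. Their distances were likewise the smallest by choice.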

How the data were processed

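RNA of sorted dermal endothelium from 6 rats was measured on Affymetrix arrays, 1 array per animal. The submitters' processing notes name RMA and Affymetrix Expression Console; versions and genome build were not found in the labels. The deposited values are read as log2 from the RMA entry and from their range, whose top of 19.93 is unusually high for that scale. As a method, RMA subtracts background, equalises the distributions of the arrays and sums up the probes of each probeset.

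Of 24834 probesets, 1646 controls were left out, and 15049 had 1 gene symbol; 8139 others were unnamed here. For the 10 genes with several probesets the highest mean was kept, and a gene needed a mean of at least 3.52, the 25th percentile over the whole table, to be tested. Genotype was tested with lmFit and eBayes of limma 3.58.1, run in R 4.3.3, two-sided, with Benjamini-Hochberg adjustment over all genes tested and a threshold of 0.05; sex and the interaction were added in further models. Exact permutation of 3 arrays against 3 reaches no p below 0.1 and was not used. The number of arrays limits the precision.

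The members and lists were chosen with earlier results of these data known. Named were the members, Il33, the 3 genes of smallest p in each list of pathway, target or immediate early genes, the defining cell markers and the 5 nearest profiles among genes with an SD over 0.5. The marker lists of lymphatic endothelium and of pericytes and smooth muscle had median differences of 0.68 (5 of 6 higher) and 0.30 (9 of 11 higher), and the keratinocyte, leukocyte, fibroblast and blood endothelial lists -1.50 (7 of 8 lower), -0.51 (9 of 11 lower), -0.69 (8 of 9 lower) and 0.34 (11 of 13 higher), with no member called. Without wildtype 34, in the same order, the medians were 1.06, 0.71, -0.36, -0.07, 0.05 and 0.29.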

Additional observations from a re-analysis of the deposited data

How the results depend on the processing

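None of the 6 measured genes was called between genotypes under any of the 17 alternatives with a test, where the lowest adjusted p was 0.501, for Birc3. Il33 was the only gene called, and the number of genes called was 0 with no filter, with the filter at the 50th percentile and in the females alone, and 0 to 1 on leaving out each array. The differences of Birc3 and Nfkbia kept their direction under all 20 alternatives, from 0.35 to 1.50 and from 0.12 to 0.74.

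The median difference of the subunits was 0.33 in the arrays of high spike-in signal, and -0.025 to 0.20 on leaving out each array; that of the inhibitors was 0.17 to 0.66 there. Nfkb2 turned to 0.10 with the spike-in block, 0.17 and 0.025 in the arrays of high and low signal, and 0.082 with the keratinocyte covariate, and ranged from -0.32 to 0.10 on leaving out arrays. On leaving out arrays Nfkb1 ranged from -0.057 to 0.51 and Nfkbie from -0.61 to 0.06. Nfkbie was 0.045 in the females alone and -0.72 between the males. Bcl3 was -0.05 in the arrays of low signal. Among those arrays wildtype 37 is the only wildtype, and knockout 28 is the only knockout of high signal. The causes were not tested.

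The alternatives for sex were chosen after seeing the data. The number of genes called, 3 in the model as reported, was 29 with centring on array medians, 26 with trend and robust options and 2 to 66 on leaving out each array, 66 being without knockout 27. For the sexes Nfkb1 turned to -0.11 with quantile normalization again and was between -0.0029 and 0.49 on leaving out arrays. Nfkbia turned to -0.25 with the keratinocyte covariate, and Nfkbie to -0.49 with it and -0.21 with the spike-in block. No paired analysis was possible because the groups share no replicate numbers.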
